A study of Homo sapiens with 3 samples.

Results

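The genes described here encode subunits of the polymerases that copy the nuclear genome, together with the primase that starts each new strand. The set comprised 10 genes: POLA1, POLA2, PRIM1 and PRIM2 of DNA polymerase alpha-primase, POLE, POLE2 and POLE3 of DNA polymerase epsilon, and POLD1, POLD2 and POLD3 of DNA polymerase delta. Each was taken from probe sets whose platform annotation names that gene and no other. All 10 had 1 such probe set, out of 18417 genes measured in this way. Expression was read on Affymetrix arrays from LNCaP cells, an established prostate carcinoma line grown with serum. The cells received siRNA by lipid transfection and were harvested 72 hours later. The groups were a negative control siRNA (1 array, called siGl2 in the series design) and siRNAs against the SLC45A3-ELK4 chimeric transcript (2 arrays, siSE1 and siSE2). The array titled siSE2 carries siSE1 in its transfection field. The title was followed, and the gap between the siRNA arrays would be a gap between repeats of 1 siRNA if that field is right. The labels do not state that the arrays came from separate cultures, so p-values reflect only how much these arrays differ, which may be technical variation.

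DNA polymerase alpha-primase lays down a short RNA and DNA primer at origins and at every Okazaki fragment. DNA polymerase epsilon then extends the leading strand and DNA polymerase delta the lagging strand, each as a complex of a catalytic subunit with smaller accessory subunits. Many genes of this machinery are transcribed in a cell cycle dependent way, with E2F factors among the known regulators, and their RNA is more abundant in dividing cell populations. In RNA from a whole culture, fewer cells that express a gene and less RNA of that gene per cell cannot be told apart.

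The promoter bases of 6 members are shown because they span the full order of differences described below, from POLE2 at the negative end to POLD2 at the other. RefSeq promoter windows on GRCh38.p14 were found for 9 of the 10 members, all but POLD3, and the 250 bases before each annotated start were searched on both strands. The motifs were the E2F letters TTTCCCGC, TTTCGCGC, TTTGGCGC and TTTGCCGC, the ETS core CCGGAAG, the NF-Y box CCAAT, the SP box GGGCGG and the cell cycle homology letters TTTGAA and TTCGAA. Capitals mark every match, and 2 matches of CCAAT on opposite strands of POLE share bases. The windows are POLE2 at chr14:49688215-49688464 (minus strand), PRIM2 at chr6:57317380-57317629 (plus strand, the downstream one of its 2 starts), POLA2 at chr11:65261712-65261961 (plus), POLA1 at chrX:24693668-24693917 (plus), POLE at chr12:132687343-132687592 (minus) and POLD2 at chr7:44123549-44123798 (minus). Each reads 5′ to 3′ in the direction of the gene and ends at the base before the start.
POLE2: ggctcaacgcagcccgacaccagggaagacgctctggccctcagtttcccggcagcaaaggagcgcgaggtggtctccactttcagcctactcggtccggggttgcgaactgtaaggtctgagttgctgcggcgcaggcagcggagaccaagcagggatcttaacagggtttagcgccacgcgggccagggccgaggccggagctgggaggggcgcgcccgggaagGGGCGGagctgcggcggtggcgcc
PRIM2: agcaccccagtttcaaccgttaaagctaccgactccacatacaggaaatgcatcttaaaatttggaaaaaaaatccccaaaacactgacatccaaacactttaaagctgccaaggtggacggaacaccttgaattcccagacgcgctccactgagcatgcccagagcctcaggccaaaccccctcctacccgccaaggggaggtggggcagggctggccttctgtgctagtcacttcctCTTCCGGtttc
POLA2: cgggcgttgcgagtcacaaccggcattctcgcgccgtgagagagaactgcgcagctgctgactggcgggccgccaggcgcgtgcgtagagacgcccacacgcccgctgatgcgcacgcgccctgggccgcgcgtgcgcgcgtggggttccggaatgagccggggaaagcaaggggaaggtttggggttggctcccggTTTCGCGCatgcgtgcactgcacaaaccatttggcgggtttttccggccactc
POLA1: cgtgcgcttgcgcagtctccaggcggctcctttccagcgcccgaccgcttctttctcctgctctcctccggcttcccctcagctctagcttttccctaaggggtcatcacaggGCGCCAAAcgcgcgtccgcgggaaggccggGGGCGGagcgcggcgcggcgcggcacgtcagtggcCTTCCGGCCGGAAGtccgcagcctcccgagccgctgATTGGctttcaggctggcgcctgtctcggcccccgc
POLE: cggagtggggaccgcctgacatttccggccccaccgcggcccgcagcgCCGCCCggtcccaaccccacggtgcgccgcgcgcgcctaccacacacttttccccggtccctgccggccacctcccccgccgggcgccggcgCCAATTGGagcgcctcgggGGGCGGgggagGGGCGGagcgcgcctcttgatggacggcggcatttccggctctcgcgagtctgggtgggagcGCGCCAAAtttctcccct
POLD2: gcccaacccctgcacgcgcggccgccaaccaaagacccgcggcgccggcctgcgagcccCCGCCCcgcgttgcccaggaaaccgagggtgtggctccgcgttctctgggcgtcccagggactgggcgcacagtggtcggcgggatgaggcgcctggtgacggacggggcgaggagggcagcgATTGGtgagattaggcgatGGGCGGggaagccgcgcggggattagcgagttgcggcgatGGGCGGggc

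None of the 10 genes passed the test over all genes, while 8 read lower than control on both siRNA arrays. The test was limma on log2 values of the 12892 genes above the 30th percentile of mean level, and a gene passed at an adjusted p under 0.05. All 10 members were above that level. By this test 0.962% of the genes tested passed, 0.714% being lower and 0.248% higher. At an unadjusted p under 0.05, limma gave 4 members lower and 0 higher, where 11.3% of all genes tested were lower and 6.46% higher. Of all genes tested 41.7% read lower than control on both siRNA arrays, so this direction alone is common. A size rule, at least 0.32 lower on the log2 scale on both arrays, was met by 4 members (POLA1, POLA2, PRIM2 and POLE2) and by 8.02% of all genes tested, while 0 members and 4.27% of all genes were as far above control. No member was 1.5-fold lower or higher on both arrays, where 1.53% of all genes tested were lower and 0.582% higher by that much. On single arrays PRIM2 alone was 1.5-fold lower with siSE1, where 4.27% of all genes tested were, and POLE2 alone with siSE2, where 2.82% were. At a looser adjusted p under 0.1 (limma), PRIM2 and POLE2 were lower, as were 2.82% of all genes tested. The median difference of the members was -0.22 on the log2 scale, with -0.26 for siSE1 and -0.17 for siSE2, and that of all genes tested was -0.02. Both siRNA differences of a gene use the same control array, so an error of that array enters both.

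**Figure D1:**
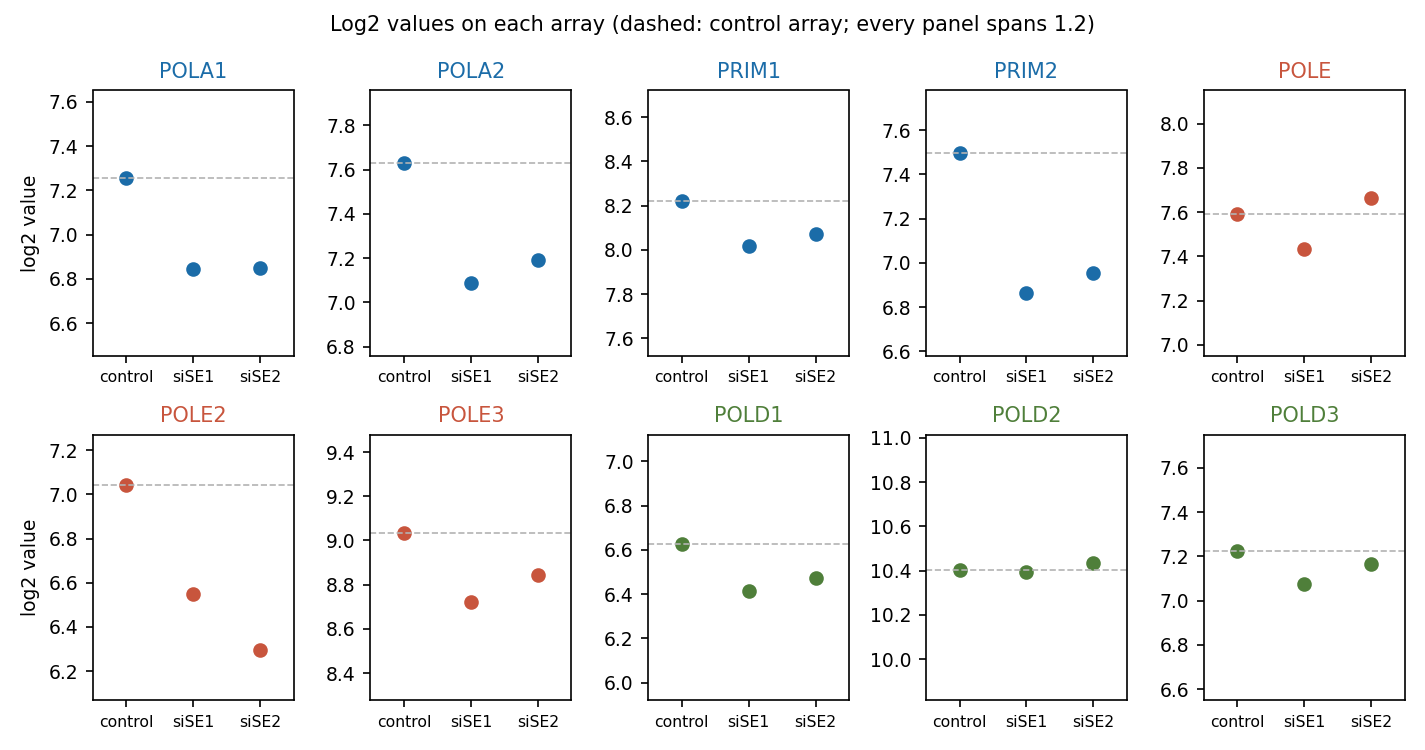
Log2 values of the 10 genes on the control, siSE1 and siSE2 arrays, 1 point per array, with the control value as a dashed line and the same span of 1.2 in every panel. The siRNA points of POLA1, POLA2, PRIM2 and POLE2 lie 0.41 to 0.75 below the control line, while the POLD2 points lie on it within 0.03.

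DNA polymerase alpha-primase stood lowest of the 3 complexes, with a median difference of -0.45 and all 4 subunits below control on both siRNA arrays. POLA1, the catalytic polymerase subunit, read 7.26 in control, 6.85 after siSE1 and 6.85 after siSE2 (log2). Its siRNA arrays differed by less than 0.01 from each other. Its difference from control was -0.41 ± 0.14 (SE, 2 arrays against 1), a 1.33-fold lower mean (limma, adjusted p = 0.178). As for every member, this error rests mostly on a variance pooled over all genes tested. POLA2, the accessory subunit that links polymerase and primase to other fork proteins, read 7.63 in control, 7.09 after siSE1 and 7.19 after siSE2. Its mean was 1.41-fold lower (log2 -0.49 ± 0.14; limma, adjusted p = 0.127), with both siRNA arrays well below the control reading and 0.11 apart.

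The primase subunits lay at both ends of this complex. PRIM2, the large regulatory subunit that helps to hand the RNA primer to the polymerase, read 7.49 in control, 6.86 after siSE1 and 6.95 after siSE2. Its mean was at a log2 difference of -0.59 ± 0.14 from control (SE; limma, adjusted p = 0.0869), which is the smallest adjusted p of the 10 members. PRIM1, the catalytic subunit that synthesizes the RNA, read 8.22, 8.02 and 8.07 in the same order. It differed by -0.18 ± 0.14 (limma, adjusted p = 0.548), close to its error, although both siRNA arrays were below control. RefSeq lists a PRIM2 pseudogene, PRIM2BP, on chromosome 6, so the PRIM2 signal may include near-identical sequence.

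In DNA polymerase epsilon the accessory subunit POLE2 read below control on both siRNA arrays while the catalytic subunit did not. POLE2 read 7.04 in control, 6.55 after siSE1 and 6.30 after siSE2. Its mean was 1.54-fold lower (-0.62 ± 0.16; limma, adjusted p = 0.0929), the most negative difference of the set, and 2.12% of all genes tested had a more negative one. It was the only member lower with siSE2 than with siSE1. POLE, which encodes the leading strand polymerase itself, read 7.59 in control, 7.43 after siSE1 and 7.67 after siSE2. Its siRNA arrays fell on opposite sides of control, and the difference of -0.04 ± 0.16 (limma, adjusted p = 0.918) was smaller than its error. The sign of the POLE mean turned to 0.02 with quantile normalization. POLE3, a small histone-fold subunit that also belongs to a chromatin remodelling complex, read 9.03, 8.72 and 8.85 in the same order. It differed by -0.25 ± 0.14 (limma, adjusted p = 0.403), with both siRNA arrays below control.

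DNA polymerase delta stood closest to control, with a median difference of -0.10 over its 3 subunits. POLD1, the catalytic subunit with proofreading activity, read 6.63 in control, 6.41 after siSE1 and 6.47 after siSE2 (-0.18 ± 0.14; limma, adjusted p = 0.537). POLD3, which binds the sliding clamp, read 7.23, 7.07 and 7.17 in the same order (-0.10 ± 0.14; limma, adjusted p = 0.745). Both lay below control on each siRNA array by no more than 0.21. POLD2, an accessory subunit, read 10.40, 10.39 and 10.44 (0.01 ± 0.14; limma, adjusted p = 0.974). Its sign depended on scaling, being -0.03 with equal array medians and below 0 with quantile normalization, and RefSeq lists a POLD2 pseudogene, POLD2P1, on chromosome 5.

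The unadjusted 95% intervals show what these 3 arrays could resolve under a variance pooled mostly over all genes tested. The errors of the members were therefore alike, from 0.14 to 0.16, and do not measure each gene's own spread. They excluded 0 for POLE2 (-0.98 to -0.27), PRIM2 (-0.91 to -0.26), POLA2 (-0.81 to -0.17) and POLA1 (-0.73 to -0.09), and included 0 for the other 6 genes. The POLD2 interval, -0.31 to 0.33, still allows a change of the size seen for POLE3. The POLE interval, -0.39 to 0.31, does not reach the POLE2 mean but overlaps the POLE2 interval. In the order of differences POLE2, PRIM2, POLA2 and POLA1 lay within 0.21 of each other, and then came POLE3, POLD1, PRIM1, POLD3, POLE and POLD2. Neighbours in that order differed by at most 0.16, about 1 standard error, and no test between genes or complexes was made.

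**Figure D2:**
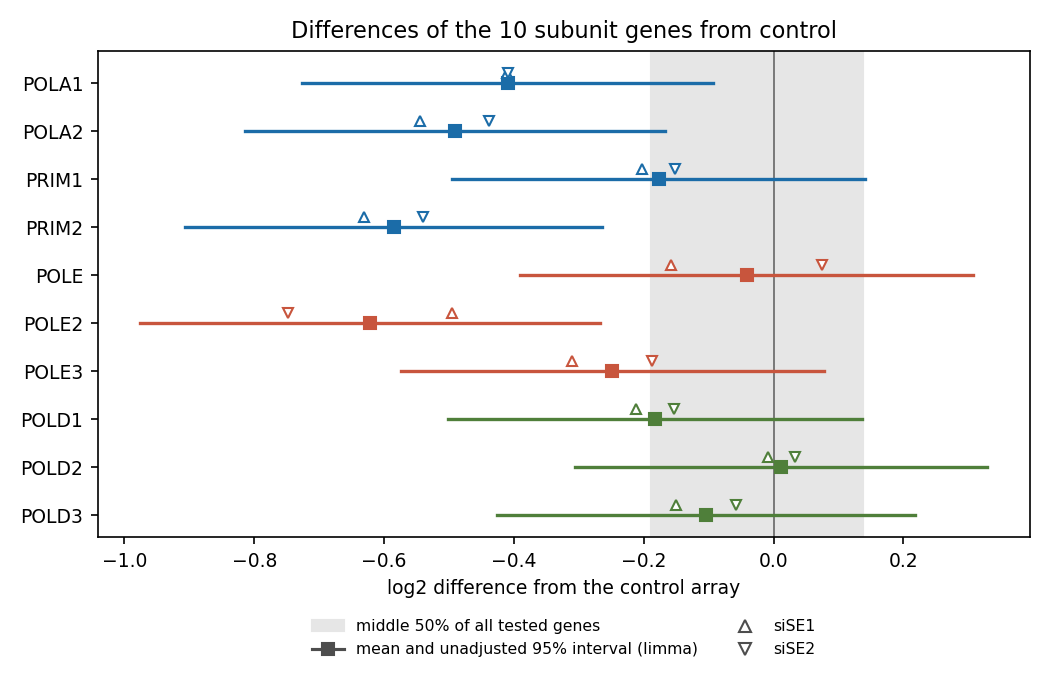
Log2 difference from the control array for each gene: squares are the mean of the siRNA arrays, lines the unadjusted 95% interval from limma, open triangles the single siRNA arrays (up siSE1, down siSE2) and the grey band the middle 50% of all genes tested (-0.19 to 0.14). POLA1, POLA2, PRIM2, POLE2 and POLE3 have means below the band, and the intervals of the first 4 stay below 0.

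The siRNA arrays were close to each other for these genes. The absolute gap between siSE1 and siSE2 had a median of 0.09 over the members and 0.12 over all genes tested. It was largest for POLE2 (0.25) and POLE (0.23) and smallest for POLA1. In 9 of the 10 genes, all but POLE2, the siSE2 array read higher than the siSE1 array, and 51.0% of all genes tested did so. With 1 array for each siRNA these gaps have no test.

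**Figure D3:**
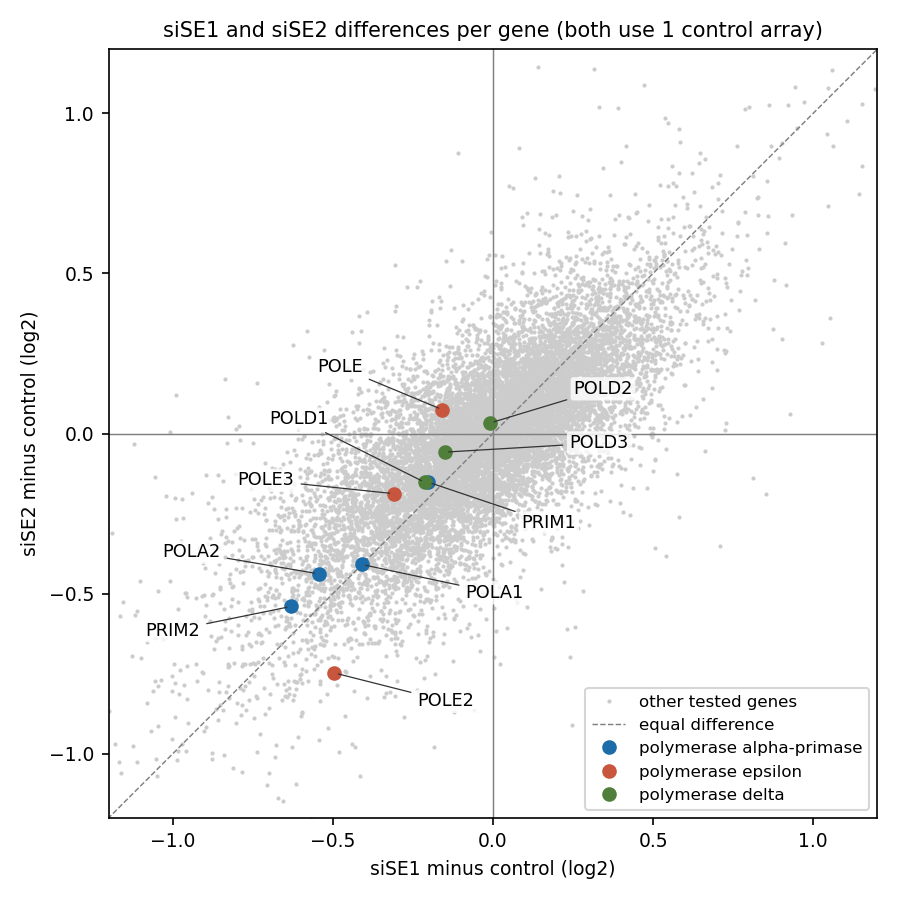
Difference from control with siSE1 (horizontal) against siSE2 (vertical), in log2, for all genes tested in grey and the 10 subunit genes in colour by complex; 36 genes lie outside the axes. Both axes use the same control array, which alone makes points follow the dashed line of equal difference, and POLE2 is the only coloured point below that line.

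The 2 remaining accessory subunits, which are not among the 10, also did not pass. POLE4, the histone-fold partner of POLE3, read 8.29 in control, 8.29 after siSE1 and 8.21 after siSE2 (-0.04 ± 0.14; limma, adjusted p = 0.911). POLD4, the smallest subunit of DNA polymerase delta, read 8.38, 8.87 and 8.38 (0.25 ± 0.20; limma, adjusted p = 0.552). POLD4 was thus higher on the siSE1 array and level with control on the siSE2 array. Among polymerase-interacting proteins, POLDIP3 differed by 0.31 ± 0.14 and KCTD13 by -0.11 ± 0.14. Of the chromatin partners of POLE3, CHRAC1 differed by -0.34 ± 0.15, BAZ1A by 0.26 ± 0.14 and SMARCA5 by 0.02 ± 0.14, so the 3 did not share a direction. Of the CST complex, which recruits polymerase alpha-primase to telomeres, CTC1 differed by -0.34 ± 0.14 and STN1 by 0.05 ± 0.14. None of these 7 genes passed (limma, adjusted p from 0.250 to 0.959).

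Factors that act beside the polymerases in replication included genes that did pass. Over all genes tested 0.714% passed as lower and 0.248% as higher. Of 11 subunits of the replicative helicase 4 fell, 0 rose and 7 did not pass, with a median difference of -0.58. They were GINS4 (2.22-fold lower), CDC45 (1.89-fold), MCM4 (1.83-fold) and GINS3 (1.80-fold). Of 10 factors that act in origin firing or at the fork 2 fell, 0 rose and 8 did not pass (median -0.41). TIPIN, a fork protection factor, fell by 0.82 on the log2 scale, and WDHD1, the adaptor that ties polymerase alpha to the helicase, by 0.75. CLSPN differed by -0.70 ± 0.15 and MTBP by -0.91 ± 0.19, neither passing. MTBP read 5.86 in control, 4.74 after siSE1 and 5.17 after siSE2, so its siSE1 reading lay below the filter level of log2 5.12. Whether MTBP was tested thus depended on the difference itself. Of 10 clamp and clamp loader genes 2 fell, RFC5 (1.97-fold lower) and RFC4 (1.86-fold), 0 rose and 8 did not pass (median -0.48), among them ATAD5 at -0.77 ± 0.19 and DSCC1 at -0.48 ± 0.14. With no filter on dim genes none of these 8 genes passed (limma); with a filter at the 50th percentile 1 helicase gene, 0 fork factors and 2 clamp loader genes did, and with equal array medians 1 fork factor did.

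Genes that finish the lagging strand lay mostly below control, with 8 of 10 lower and 2 higher on both siRNA arrays. Of all genes tested 41.7% were lower and 36.4% higher on both. Of 10 such genes 0 fell, 1 rose and 9 did not pass (limma), with a median of -0.28. Over all genes tested 0.714% fell and 0.248% rose. At an unadjusted p under 0.05 limma gave 4 lower and 1 higher, where 11.3% of all genes tested were lower and 6.46% higher. RPA1, the large subunit of the single-strand binding protein, rose 1.72-fold, reading 7.66 in control, 8.49 after siSE1 and 8.40 after siSE2 (0.78 ± 0.14; limma, adjusted p = 0.0428). It did not pass with equal array medians, with no filter or with the filter at the 50th percentile. The other subunits of that protein went the other way, RPA2 by -0.18 ± 0.14 and RPA3 by -0.25 ± 0.14, neither passing. FEN1, which removes the primer flap, differed by -0.61 ± 0.14, DNA2 by -0.54 ± 0.14 and RNASEH2A, which cuts RNA in hybrids, by -0.48 ± 0.14.

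Polymerases outside chromosomal replication had medians nearer to control than polymerase alpha-primase (-0.45) and epsilon (-0.25). They were not set apart from polymerase delta (-0.10). The median was -0.09 over 8 translesion genes, -0.06 over 5 tested repair polymerases, -0.02 over 7 genes of mitochondrial DNA replication and -0.15 over 12 subunits of RNA polymerase II, and none of these genes passed. At an unadjusted p under 0.05 limma gave 0 translesion genes lower and 1 higher, 1 repair polymerase lower, 2 mitochondrial genes lower and 2 subunits of RNA polymerase II lower. Over all genes tested 11.3% were lower and 6.46% higher at that threshold. POLQ, the polymerase of microhomology-mediated end joining, differed by -0.62 ± 0.14, reading 7.64 in control, 7.02 after siSE1 and 7.02 after siSE2 (limma, adjusted p = 0.0704). This is the size of the POLE2 and PRIM2 differences. POLB and POLM differed by -0.01 ± 0.14 and -0.06 ± 0.14. REV3L, the catalytic subunit of polymerase zeta, went the other way by 0.45 ± 0.15, and POLK, RAD18 and PRIMPOL lay between -0.31 and -0.29. Of the mitochondrial genes, MGME1 differed by -0.52 ± 0.15, POLG, the mitochondrial DNA polymerase, by -0.45 ± 0.15, TWNK by 0.25 ± 0.14 and POLRMT by 0.24 ± 0.14. POLR2G (-0.53 ± 0.15) and POLR2I (-0.41 ± 0.15) were the most negative of RNA polymerase II, while POLR2A differed by -0.27 ± 0.15 and POLR2F by -0.16 ± 0.14.

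**Figure D4:**
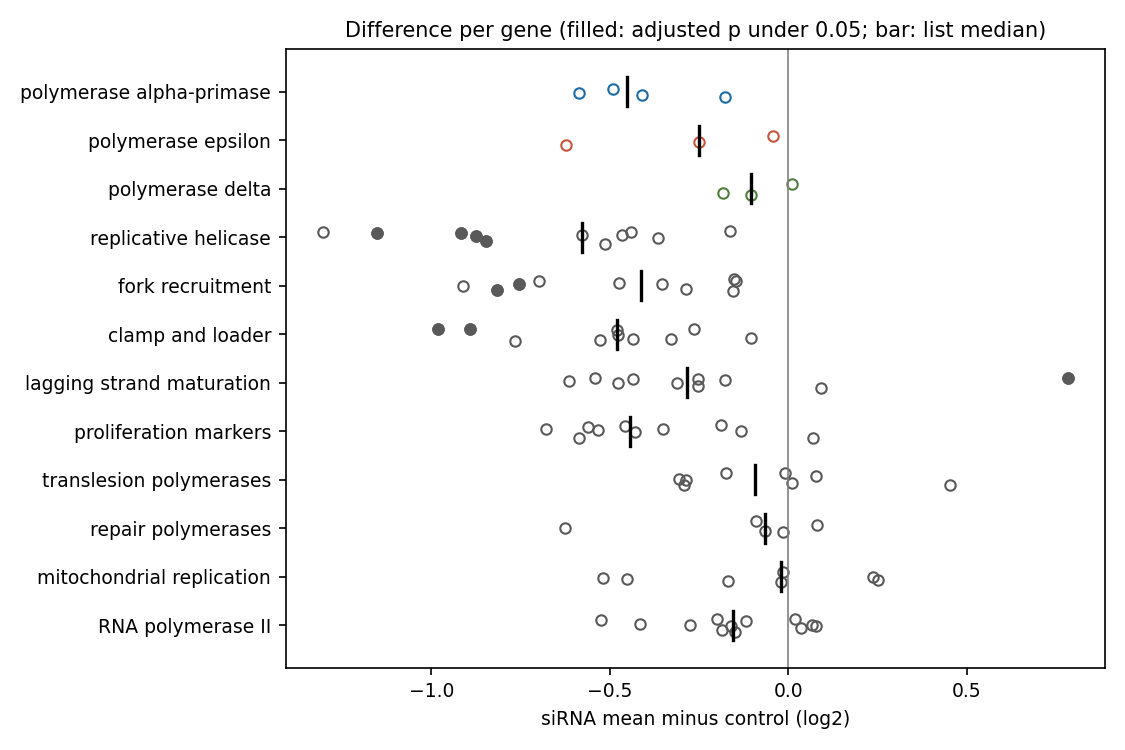
Mean log2 difference from control per gene (horizontal) for the 3 polymerase complexes in colour and the companion gene lists in grey; filled points passed limma at an adjusted p under 0.05 and black bars are list medians. Filled points lie in the helicase, fork recruitment, clamp and lagging strand rows, and none in the rows of the 10 subunit genes.

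Markers of proliferating cells stood lower together with these genes. Of 10 such markers 9 read below control on both siRNA arrays, 0 passed (limma; 7 lower at an unadjusted p under 0.05) and the median was -0.44; the summed log2 level was 83.9 in control, 80.4 after siSE1 and 79.8 after siSE2. Of all genes tested 41.7% read below control on both siRNA arrays, and 11.3% were lower at an unadjusted p under 0.05 (limma). MKI67 differed by -0.68 ± 0.15, TYMS by -0.59 ± 0.14, TOP2A by -0.56 ± 0.14 and CCNA2 by -0.53 ± 0.14. Nearest to control were CDK1 (0.07 ± 0.15), BIRC5 (-0.13 ± 0.14) and CCNB1 (-0.19 ± 0.14). The part of the proliferation markers in the differences of the polymerase subunits was not tested. The labelled cell type was checked against luminal prostate markers: 8 of 12 were measured and all 8 were above the filter level, with a median difference of 0.02. Of these, KLK3 differed by -0.39 ± 0.14, KRT8 by 0.43 ± 0.14, KRT18 by 0.42 ± 0.15 and ACP3 by 0.76 ± 0.15. Markers of other cell types were in part above the filter level: 4 of 6 measured basal, 6 of 10 stromal and 3 of 8 blood cell markers. PTPRC, CD3E, MS4A1, DCN and LUM were below it on every array. The level applies to the mean of the arrays, and LYZ, CD14, DST, KRT5 and KRT15 read on both sides of it. LYZ read 4.41 in control, 6.09 after siSE1 and 5.11 after siSE2, above the level with siSE1 alone. CD14 was below the level in control (5.03) and above it after siSE1 (5.22) and siSE2 (5.38). DST was above it in control (5.65) and below it after siSE1 (5.01) and siSE2 (5.07). The basal keratins KRT5 and KRT15 were not tested. They were below it in control (4.92 and 4.85) and after siSE1 (5.03 and 4.93), and above it after siSE2 (5.21 and 5.51). Whether these genes were tested thus depended on the difference itself. The summed log2 level on the control, siSE1 and siSE2 arrays was 33.0, 33.1 and 33.6 for basal, 51.5, 51.8 and 51.6 for stromal and 35.4, 37.9 and 37.6 for blood cell markers. None of these markers passed, though 1 luminal marker rose past the threshold with quantile normalization, cyclic loess or a prior variance that follows expression. Among the markers of other cell types DST differed by -0.61 ± 0.14, ITGB4 by 0.21 ± 0.14, KRT14 by 0.19 ± 0.15, ACTA2 by -0.47 ± 0.16, VIM by -0.25 ± 0.15, COL3A1 by 0.15 ± 0.14, COL1A2 by 0.13 ± 0.14, LYZ by 1.19 ± 0.31, CD68 by 0.30 ± 0.15 and CD14 by 0.27 ± 0.15.

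The promoter letters shown above are described beside the differences, and a link between the 2 was not tested. E2F letters were found in 3 of the 9 members with a window, and in 2.79% of all 35116 windows of this length (5.40% of the tested genes that have one). They lay at bases -137 to -130 of POLA1, -53 to -46 of POLA2 and -18 to -11 of POLE, counted back from -1 at the base before the start. Those 3 genes differed from control by -0.41, -0.49 and -0.04, while the windows of POLE2 and PRIM2 held none of these letters. The ETS core was found at -72 to -66 and -65 to -59 of POLA1, side by side on opposite strands, and at -11 to -5 of the downstream PRIM2 start, against 8.52% of all windows (17.8% of tested genes with one). POLA1 and PRIM2 differed from control by -0.41 and -0.59, while the windows of POLA2 and POLE2 held no ETS core. CCAAT was in POLA1, PRIM1, POLE and POLD2, 4 of the 9 members with a window, and in 40.7% of tested genes with one (32.0% of all windows). GGGCGG was in 6 of the 9 members and in 73.5% of tested genes with a window (42.6% of all windows). The cell cycle homology letters were in POLE3 alone and in 13.0% of tested genes with a window (14.3% of all windows). POLE2, the member with the most negative difference, held 1 GGGCGG at -24 to -19 and no other searched motif. A match is a description of these letters and not a measured site. Only exact letters before the start were searched, so a window without a match may still hold a similar sequence.

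The members' windows were rich in G and C, with a median of 68% over 13 windows and 58% over all windows. They ranged from 39.6% at the upstream PRIM2 start to 75.2% at POLE. Within 1000 bases upstream, POLE and POLE3 had an annotated start of another gene on the opposite strand. PXMP2, a peroxisomal membrane protein gene, starts 245 bases from POLE and read 7.65 in control, 7.41 after siSE1 and 7.28 after siSE2 (-0.30 ± 0.15; limma, adjusted p = 0.318). It lay below control on both siRNA arrays, unlike POLE. C9orf43 starts 72 or 373 bases from the POLE3 starts and differed by -0.08 ± 0.14 (limma, adjusted p = 0.814).

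Many genes shared the typical pattern of the set. The tested genes outside the lists whose pair of differences lay nearest to the members' medians (Euclidean distance, over 3 arrays) were HDGF, LY6G6C, SEPHS1, SMARCD3 and CYTH3, all within 0.01. As 219 genes lay within 0.05 of that point, likeness over 3 arrays singles out no gene.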

How the data were processed

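The authors deposited 1 table of log2 values with 33297 probe sets and a column for each of 3 arrays, for which the submitters' processing notes name the program Affymetrix Expression Console. Its version and algorithm and the genome build were not given in the sources used here. The log2 scale was inferred from the range of the values (1.43 to 13.9). The platform annotation named 1 gene for 19460 probe sets, several for 1754 and left 12083 unnamed; 19429 of the 19460 matched a RefSeq gene by identifier. Probe sets of a gene were averaged, and 5525 genes whose mean lay under log2 5.12, the 30th percentile, were not tested. limma 3.58.1 in R 4.3.3 (lmFit, eBayes) compared both siRNA arrays with the control array, with Benjamini-Hochberg adjustment over 12892 genes. The fit has 1 residual degree of freedom, given by the gap of siSE1 to siSE2, and takes the control array to be as variable as these. Its errors combine that gap with a variance pooled over all genes tested, which counted for 8.46 degrees of freedom. The siRNA arrays shared 131 identical values and were kept as separate samples. The fit was tested on simulated data with noise drawn from its own pooled variance. It called 98 of 100 genes lowered by 1 on the log2 scale and 100 of 100 lowered by 2. Of 217 calls 19 were false. Differences as small as those of the members were not simulated. Precision is limited by having 3 arrays.

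The members, companion lists and tests were chosen with earlier results of these data known. Named genes are the 10 members, POLE4 and POLD4, from each companion list up to 4 genes with the largest smaller one of their 2 siRNA differences in 1 direction plus any that passed, and the 5 genes nearest in pattern. PXMP2 and C9orf43 were named by position, and dim markers as checks of the cell type. RPA2 and RPA3 were named beside RPA1, and CDK1, BIRC5 and CCNB1 as the proliferation markers nearest to control.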

Additional observations from a re-analysis of the deposited data

How the results depend on the processing

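No member passed limma at an adjusted p under 0.05 in any of 8 other fits (3 normalizations, the highest probe set per gene, no filter, a filter at the 50th percentile, and 2 other variance priors). The adjusted p ran from 0.0767 to 0.181 for PRIM2, from 0.0810 to 0.190 for POLE2, from 0.114 to 0.223 for POLA2 and from 0.149 to 0.272 for POLA1. At an adjusted p under 0.1, 2 members (PRIM2 and POLE2) would count as lower, where 2.82% of all genes tested were lower at that threshold. The count of members 1.5-fold lower was 1 without siSE1 (POLE2; 2.82% of all genes tested) and 1 without siSE2 (PRIM2; 4.27%). The POLE difference became 0.0228 with quantile normalization and 0.0743 without siSE1 (-0.158 without siSE2), and the POLD2 difference -0.0041 with quantile normalization, -0.0280 with equal array medians and -0.0093 without siSE2 (0.0329 without siSE1). The median of polymerase alpha-primase was -0.40 with quantile normalization and -0.49 with equal array medians. Medians of companion lists changed sign for the chromatin partners of POLE3 (-0.0214) and the luminal markers (-0.0213) with equal array medians, for the stromal markers (-0.25) when only genes above the 50th percentile were kept, for the polymerase-interacting list without siSE1 (-0.0406; 0.141 without siSE2) and for the luminal markers without siSE2 (-0.0462; 0.0833 without siSE1). Over all genes, 92 fell and 32 rose; with quantile normalization 126 and 63, with no filter 0 and 1, and when only genes above the 50th percentile were kept 20 and 15. At that limit no basal marker was left to give a median. No paired analysis was possible because the control group has 1 array. Without 1 siRNA array no residual degrees of freedom are left, so those values have no test.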
